A study of Mus musculus with 18 samples.

Results

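RNA from nuclei of untransfected Neuro2A cells was compared with RNA from whole-cell lysates of the same culture type, without any miRNA mimic. The comparison took in 6 of the 18 samples of the series, 3 labelled Nuc_Control and 3 labelled Whole_Control, chosen by their labels alone. Neuro2A (N2A) is a line from a mouse neuroblastoma and is wild type by its label. The cells were grown in DMEM with serum, and nuclei were isolated by lysis in a hypotonic detergent buffer and spinning through sucrose. The other 12 samples came from cells given a biotinylated miR-92b mimic or a biotinylated scrambled mimic (Scr), each as 3 nuclear and 3 whole-cell samples, at 25 nM. The extraction text of all samples includes a streptavidin step that captures biotin, and the labels do not say whether RNA of the control samples went through it. RNA with a poly(A) tail was then selected on oligo-dT beads and made into stranded libraries.

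A messenger RNA is made, spliced and given its poly(A) tail in the nucleus and is then exported, so that the nucleus holds RNA still in the making together with RNA that stays there. Transcripts that remain nuclear include architectural long noncoding RNAs of speckles and paraspeckles and spliced RNAs that keep an intron ("detained" introns). RNA of abundant housekeeping proteins collects in the cytoplasm, and mitochondrial RNA is made outside the nucleus. A whole-cell lysate contains the nucleus too, so the comparison sets a fraction against a mixture that holds it.

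The values were normalized counts per locus, that is reads divided by 1 size factor per sample. They measure the share of a library and not RNA per cell, and fewer copies of an RNA in the fraction cannot be told apart from more of all the others. Nuclear control samples held 3752991 to 4301579 reads on loci with a gene symbol and whole-cell control samples 5073238 to 7772587. Nuclear control sample 3 stood apart: at a common depth of 3752991 reads it held 15732 loci with a symbol, against 20577 and 19886 in the other nuclear samples and 16710 to 18275 in the whole-cell samples. Its Spearman correlation with the other nuclear samples was 0.909, against 0.962 between those 2 and 0.936 to 0.944 among whole-cell samples. Results that rest on it are therefore also given without it. Loci without a symbol took 10.8% to 14.3% of the reads of nuclear samples and 8.06% to 8.45% of those of whole-cell samples (exact permutation test, two-sided p = 0.1, the smallest possible with 3 against 3).

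The cell type label was checked with markers. Of 20 loci of sympathetic neuroblastoma genes, 14 passed the filter on low values, among them Hand2, Gata3 and Th, and the summed normalized count of the list was 7379 to 7894 in nuclear and 7525 to 8304 in whole-cell samples. Nefl, Nefm and Chat were at 0 in all 6 samples. The summed markers of macrophages, fibroblasts and epithelium stayed at or below 15.6 in every sample, those of astrocytes between 30.6 and 104, those of oligodendrocytes between 99.5 and 238, and those of endothelium between 184 and 289.

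The fraction was first checked with the genes that the study used for that purpose. Malat1, a long noncoding RNA of nuclear speckles (GRCm38 chr19:5794052-5802737), had normalized counts of 97679, 91489 and 101533 in the 3 nuclear samples and 43528, 38046 and 51493 in the 3 whole-cell samples. Neat1, the scaffold RNA of paraspeckles (joined with Gm27702, chr19:5824356-5875274), had 32003, 30414 and 32452 against 15164, 12582 and 17141. In both cases every nuclear sample lay above every whole-cell sample. The log2 fold change of nuclear over whole cell was 1.14 ± 0.28 (SE) for Malat1 (limma, adjusted p = 0.00968) and 1.09 ± 0.25 for Neat1 (limma, adjusted p = 0.00514). Without whole-cell sample 2 Malat1 lost its call at 1.03 (limma, adjusted p = 0.0659).

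The cytoplasmic markers went the other way. Gapdh, a glycolytic enzyme (chr6:125145241-125166467), had 1036.9, 653.4 and 998.3 in the nuclear samples, against 5666.9, 5047.1 and 6627.5 in whole-cell samples. Eef2, the factor that moves the ribosome along the message (chr10:81176631-81182507), had 1673.7, 1596.0 and 2673.7 against 20353, 16733 and 24046. Neither gene overlapped between the groups. Gapdh was lower in nuclei by a log2 fold change of -2.71 ± 0.34 (limma, adjusted p = 7.18e-06) and Eef2 by -3.39 ± 0.35 (limma, adjusted p = 6.18e-07). Miat (Gomafu), another nuclear marker of the study, did not pass the filter on low values.

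**Figure D1:**
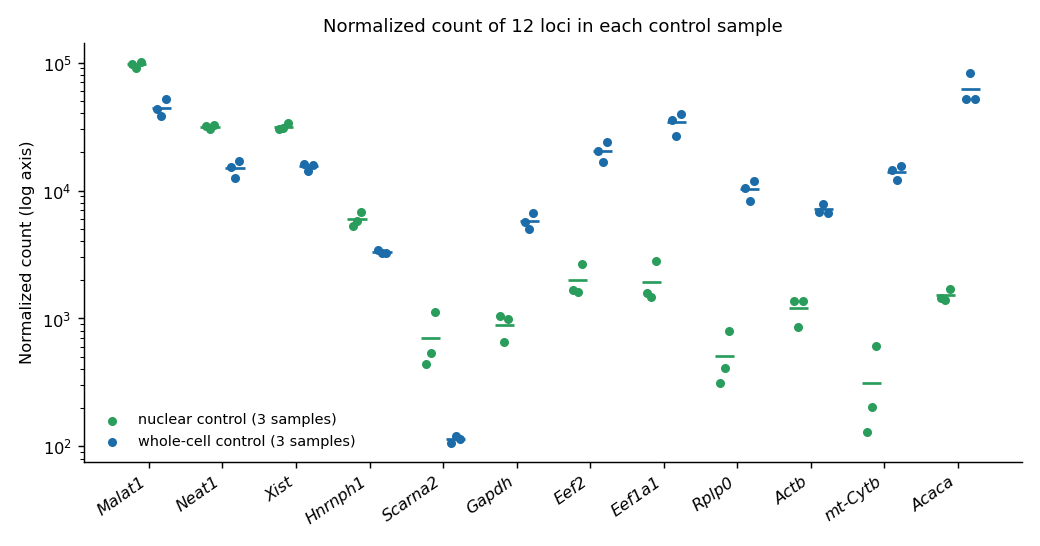
Normalized count (log axis) of 12 loci in the 3 nuclear control samples (green) and the 3 whole-cell control samples (blue), with a line at each group mean. The nuclear samples lie above for Malat1, Neat1, Xist, Hnrnph1 and Scarna2 and below for the other 7, and the groups do not overlap at any of the 12.

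Across all 15579 loci tested, 458 were higher in the nuclear samples, against 1077 were lower (limma on log2(normalized count + 1), Benjamini-Hochberg adjusted p below 0.05, "called" from here on). These calls covered 2.94% and 6.91% of tested loci, the background for every count that follows. The 2 directions differed in size: the median log2 fold change was 0.94 among loci called higher and -1.62 among loci called lower, and an absolute log2 fold change above 2 was reached by 21 of the first and 382 of the second. The median over all tested loci was 0.06. Of the called loci, 457 and 1071 did not overlap between the groups, against 18.8% (higher) and 19.4% (lower) of all tested loci. Without nuclear sample 3 the counts were 144 and 706, and when any other control library was left out they ranged from 180 to 357 and from 674 to 930. When all samples were rescaled to the same median, which moved the median over all loci to 0.18, the split became 773 higher and 891 lower.

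**Figure D2:**
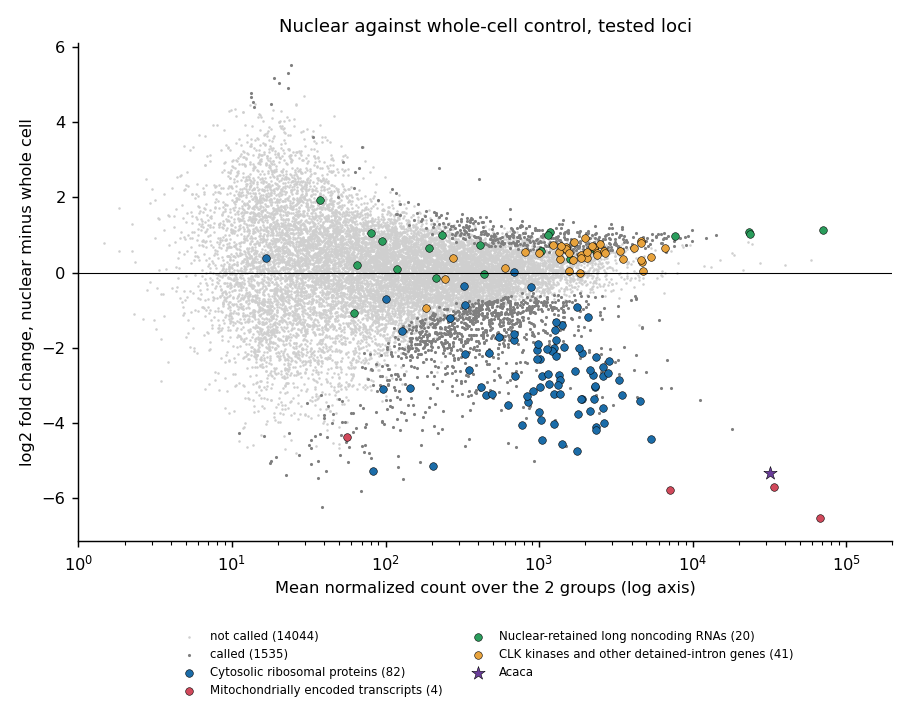
Log2 fold change of nuclear over whole-cell control against the mean normalized count (log axis), 1 point for each of 15579 tested loci, with 4 gene lists and Acaca in colour. Loci with many reads were spread unevenly about 0: calls above it stayed mostly near 1, whereas ribosomal protein loci (median -2.75), mitochondrial loci (median -5.75) and Acaca (-5.33) lay far below it.

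Nuclear-retained long noncoding RNAs were the list with the highest median. Of 20 loci tested 7 were higher, none was lower, and the median log2 fold change was 0.79. Beside Malat1 and Neat1, Xist, which coats the inactive X chromosome (joined with 2 Gm symbols, chrX:103414467-103484957), had 29987, 30873 and 33618 in nuclear and 16221, 14201 and 15927 in whole-cell samples (log2 fold change 1.03 ± 0.27, limma, adjusted p = 0.0143). Kcnq1ot1, the antisense RNA of an imprinted domain, had 8692.2, 10220 and 11935 against 5127.1, 4972.7 and 5413.0 (0.98 ± 0.24, limma, adjusted p = 0.0108). The groups were apart for both, with nuclear levels at about the same ratio to whole cell as for Malat1 and Neat1. Without nuclear sample 3 neither was called (limma, adjusted p = 0.067 for Xist and 0.0706 for Kcnq1ot1), and 3 loci of the list were called. Xist was also not called without whole-cell sample 2 (limma, adjusted p = 0.0702). Together the RNAs of the list took 3.17%, 3.03% and 3.22% of the reads in the nuclear samples, against 1.47%, 1.31% and 1.598% in whole-cell samples (exact permutation test, two-sided p = 0.1, the smallest possible). Malat1 alone had 97679 of the 178298 normalized counts of the list in nuclear sample 1 and 43528 of 87511 in whole-cell sample 1. Of the 20 tested loci 13 join several symbols.

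Long noncoding RNAs of another kind, which are spliced, host snoRNAs in their introns or act in the cytoplasm, had a median of -0.19 over 16 loci, which was -1.07 with the FPKM values, -0.07 with samples scaled to the same median and -0.04 with quantile normalization. No locus of this list was higher. The only call was Snhg5, with 363.9, 385.9 and 458.8 in nuclear and 666.8, 731.5 and 767.8 in whole-cell samples (log2 fold change -0.84 ± 0.26, limma, adjusted p = 0.0397), lost whichever control sample was left out (limma, adjusted p = 0.0646 to 0.1275). Snhg17 and Snhg15 had fold changes of 0.55 and 0.57 on the log2 scale and were not called (limma, adjusted p = 0.0916 and 0.126).

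Genes of the CLK kinases and other genes known for detained introns, most of them splicing regulators, formed the second list with an upward median. Of 41 loci tested 13 were higher, none was lower, 38 had a log2 fold change above 0 and the median was 0.52. Hnrnph1, a splicing repressor and activator that binds G-rich RNA, had 5297.0, 5813.8 and 6777.6 in nuclear and 3454.9, 3222.6 and 3235.8 in whole-cell samples (0.84 ± 0.18, limma, adjusted p = 0.00354). Mat2a, which makes S-adenosylmethionine, had 5484.8, 4618.5 and 5032.6 against 3359.7, 3129.2 and 3131.4 (0.65 ± 0.20, limma, adjusted p = 0.0402). Nktr and Rbm39 were called at 0.78 and 0.51. Mat2a, Nktr and Rbm39 lost their call whichever control sample was left out (limma, adjusted p = 0.0637 to 0.1974), and Hnrnph1 kept it. The shifts were small and even, with 33 of 41 loci not overlapping between the groups, against 18.8% of all tested loci in this direction. With 1 control library left out, 3 to 5 loci of the list were called. The normalized count per locus does not separate intron from exon reads.

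Zinc finger protein genes, a large family of DNA-binding regulators, leaned upward in a weaker form. Of 329 loci, 21 were higher and 5 lower, and the median was 0.30. Zfp292 had 3926.6, 4039.0 and 3740.0 in nuclear and 2276.6, 2401.2 and 2205.3 in whole-cell samples (0.77 ± 0.18, limma, adjusted p = 0.00673). Zfp638, Zfp644 and Zfp804b were called at 0.72, 0.76 and 0.84. Without nuclear sample 3 these 3 were not called (limma, adjusted p = 0.0565, 0.0867 and 0.0628), nor were Zfp644 without whole-cell sample 2 (0.0717) and Zfp804b without nuclear sample 2 or any whole-cell sample (0.0525 to 0.1031), whereas Zfp292 was called throughout. The share called higher was 6.38%, against 2.94% of all loci, and with 1 control library left out 5 to 15 loci of the family were called higher.

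Voltage-gated channel genes, which set the excitability of neurons, had a median of 0.37 over 28 loci with no locus higher and 1 lower. Scn8a, Cacna1c and Kcnh2, among the members with most reads, had log2 fold changes between -0.23 and 0.26 and were not called. Immediate early and other short-lived transcripts had 1 lower call among 38, at the locus that joins Ddit4 with Anapc16 (-1.17 ± 0.19, limma, adjusted p = 0.0002), and Rhob, which had the most reads, was at 0.03. Their median was 0.15 and changed sign to -0.25 with the FPKM values.

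The largest upward changes lay at other loci, mostly with few reads. Scarna2, a guide RNA of Cajal bodies (chr3:108554338-108554751), had 437.6, 535.1 and 1132.8 in nuclear and 107.0, 121.1 and 113.8 in whole-cell samples (2.49 ± 0.39, limma, adjusted p = 0.000135). Gm43826, a predicted gene of unknown role, had 196.4, 325.4 and 642.3 against 17.6, 94.2 and 69.4 (2.79 ± 0.49, limma, adjusted p = 0.000503). Both kept their call whichever control library was left out, and in both nuclear sample 3 was the highest. The other 10 loci of this rule had mean normalized counts of 52.8 to 162.7 over the 6 samples and log2 fold changes between 1.82 (Snx29) and 3.33 (Gm20456). The size of several rested on 1 whole-cell sample: Gm20456 was at 1.604 without whole-cell sample 1 (limma, adjusted p = 0.2308), Grip1os2 moved from 2.22 to 1.25 without the same sample (adjusted p = 0.2926), and Gm26718 moved from 2.95 to 1.64 without whole-cell sample 2 (adjusted p = 0.2213). They were Gm20456, Gm26718, Gm26743, Gm37183, Grip1os2, Gapdhs, Amer1, Zfp950, Arhgef26 and Snx29, and of these only Gm37183 was called without nuclear sample 3 (limma, adjusted p = 0.0378), a locus that lost its call without nuclear sample 1 or 2 or whole-cell sample 1 or 3 (adjusted p = 0.0917 to 0.1483). Gapdhs is the sperm form of the enzyme that Gapdh encodes.

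Transcripts of the mitochondrial genome showed the largest decrease. All 4 tested loci were lower, and the median log2 fold change was -5.75. The locus that holds both mitochondrial ribosomal RNAs with mt-Nd1 and mt-Nd2 had 693.2, 1444.0 and 2914.2 in nuclear and 118921, 125547 and 158309 in whole-cell samples (-6.54 ± 0.65, limma, adjusted p = 5.07e-07). Mt-Cytb, a core subunit of complex III, had 201.7 and 607.5 in nuclear samples 2 and 3, less in nuclear sample 1, and 14369, 12189 and 15544 in the whole-cell samples (-5.79 ± 0.59, limma, adjusted p = 5.94e-07). Mt-Nd6, the 1 protein-coding gene of the other strand, had 13, 8.1 and 0 against 87.0, 112.4 and 115.4 (-4.39 ± 1.18, limma, adjusted p = 0.0179), lost without nuclear sample 3 at -3.22 (limma, adjusted p = 0.12) and without any 1 whole-cell sample (adjusted p = 0.0545 to 0.0684). The mitochondrial chromosome took 0.0268%, 0.0463% and 0.106% of reads in the nuclear samples and 3.34%, 3.27% and 4.15% in the whole-cell samples (exact permutation test, two-sided p = 0.1, the smallest possible), so that nuclear sample 3 held the most of the 3.

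Messages of cytosolic ribosomal proteins, the protein component of the translation machinery, fell almost as a whole. Of 82 loci tested 74 were lower, none was higher, and the median log2 fold change was -2.75. Rplp0, a protein of the ribosomal stalk (chr5:115559467-115563727), had 310.5, 411.4 and 805.3 in nuclear and 10414, 8286.1 and 11859 in whole-cell samples (-4.42 ± 0.47, limma, adjusted p = 8.5e-07). The loci of Rps2, Rpsa and Rpl4, each joined with snoRNAs of their introns, were at -3.41, -3.25 and -2.87. With 1 control library left out, 71 to 74 loci of the list were called lower. The list took 0.484%, 0.474% and 0.657% of reads in the nuclear samples, against 3.26%, 2.88% and 3.80% in whole-cell samples (exact permutation test, two-sided p = 0.1, the smallest possible). The 8 loci not called were Rpl30, Rpl35a, Rps18, Rpl7l1, Rpl22l1, Rps4l, Rpl29 and Rpl36a, with log2 fold changes from -1.56 to 0.40. Ribosomal protein genes have many near-identical pseudogenes, so reads may have been split between copies. Of 506 pseudogene loci tested, 18 were higher and 16 lower, among the latter Rps2-ps6, a copy of Rps2, at -5.05 ± 1.31 (limma, adjusted p = 0.0143), which was not called without nuclear sample 1 or any 1 whole-cell sample (adjusted p = 0.0514 to 0.0706).

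Messages of ribosomal proteins and elongation factors are known to begin with a C followed by a run of pyrimidines (the TOP motif, bound by LARP1). The start sites of loci of 1 protein-coding symbol were searched for it in RefSeq windows (GRCm38.p6), on the sense strand, as a C followed by at least 6 more C or T that starts within 5 bases of the annotated start. It was present in 47.5% of 40 ribosomal protein loci (19 of 40). It was present in 10.0% of 699 loci called lower, in 8.13% of the 664 of these that are no ribosomal protein genes, in 4.37% of 206 loci called higher and in 7.95% of 8356 tested loci. A locus counted if any of its windows held the run, whereas of all 32851 windows, each counted singly, 6.48% held it. Of the called ribosomal protein loci that had the run, 4 are printed to show how it sits at the start of these messages. They had the most normalized counts among the loci considered for printing, which did not cover every chromosome. Each is printed from 30 bases before the annotated start to the first 20 transcribed bases, with the run in capitals.
Rps24 (chr14:24490648-24490697, plus strand): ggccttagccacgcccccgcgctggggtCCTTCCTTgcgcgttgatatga
Rpl14 (chr9:120571487-120571536, plus strand): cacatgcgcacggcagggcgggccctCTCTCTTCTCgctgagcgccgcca
Rpl18 (chr7:45718041-45718090, plus strand): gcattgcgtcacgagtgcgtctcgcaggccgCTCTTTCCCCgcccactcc
Rps6 (chr4:86857348-86857397, minus strand): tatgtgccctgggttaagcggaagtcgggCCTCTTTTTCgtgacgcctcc
The log2 fold changes of these 4 loci were -1.19, -3.37, -3.24 and -2.87 in this order. Magi1 (0.92) and Prune2 (0.73), 2 protein-coding loci called higher, had no such run and are printed for contrast. They had the most normalized counts among the higher calls considered for printing, with the same limit.
Magi1 (chr6:93912944-93912993, minus strand): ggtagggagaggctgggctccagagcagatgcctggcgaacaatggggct
Prune2 (chr19:16956088-16956137, plus strand): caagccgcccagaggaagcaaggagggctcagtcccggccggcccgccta

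Other parts of the translation machinery were lower too. Of 13 elongation factor loci 7 were lower and none higher, with a median of -1.98. Eef1a1, which brings aminoacyl-tRNA to the ribosome, had 1575.5, 1458.8 and 2789.2 in nuclear and 35328, 26904 and 39851 in whole-cell samples (-4.18 ± 0.42, limma, adjusted p = 5.07e-07). Eef1a2, its neuronal and muscle form, and Eef1g were called at -2.59 and -1.49. Of 47 initiation factor loci 19 were lower and none higher, with a median of -0.78. Among those with many reads, Eif1 was at -2.07 ± 0.33 (limma, adjusted p = 0.00016), the Eif4g2 locus at -1.26, Eif3b at -0.75 and Eif4b, with 3094.8, 3413.8 and 3398.3 against 5419.9, 5231.2 and 5236.9, at -0.68 ± 0.16 (limma, adjusted p = 0.00859). Eif3b lost its call without nuclear sample 3 or whole-cell sample 1 (limma, adjusted p = 0.0548 and 0.059).

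**Figure D3:**
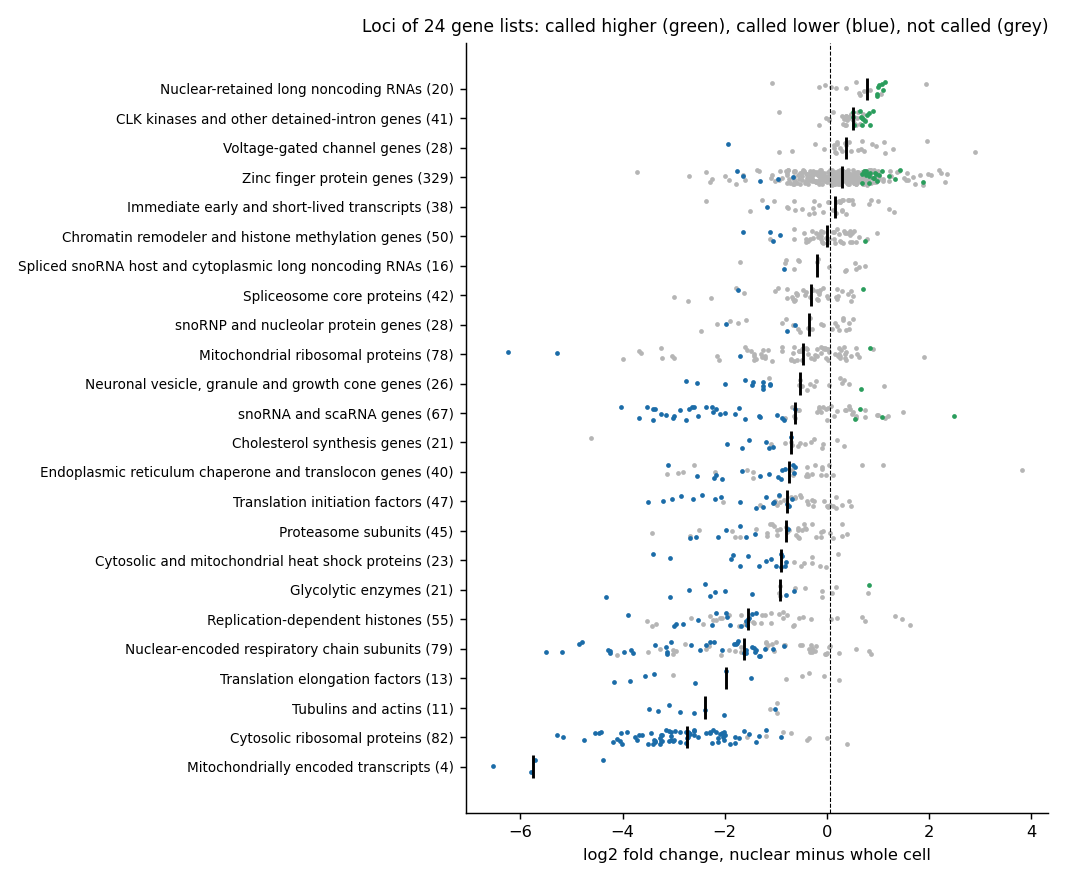
Log2 fold change of nuclear over whole-cell control for each tested locus of 24 gene lists, sorted by their median (black bar), with the number of loci in brackets. Green points were called higher, blue points lower and grey points not called, and the dashed line marks the median of all tested loci (0.06). Lists of translation, respiration, cytoskeleton and metabolism lie to the left, and 4 lists have a median above 0.2.

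Housekeeping messages of the cytosol followed. Of 11 tubulin and actin loci 8 were lower and none higher (median -2.39), among them Actb with 1373.4, 853.8 and 1363.8 in nuclear and 6848.7, 7885.8 and 6621.3 in whole-cell samples (-2.60 ± 0.28, limma, adjusted p = 7.93e-07). Tubb5 was at -3.30 and the Actg1 and Tuba1a/Tuba1b loci at -3.08 and -2.02. Of 23 heat shock and chaperonin loci 15 were lower and none higher (median -0.89), with Hsp90ab1 at -3.08, the Hspa8 locus at -3.41 and the chaperonin subunits Cct2 and Cct4 at -1.70 and -0.91. Of 45 proteasome loci 8 were lower and none higher (median -0.80), with Psmb4, Psmd2, Psmb7 and Psmd11 at -1.98, -1.57, -1.40 and -0.76. Without nuclear sample 2 or whole-cell sample 1 the heat shock list held 9 lower calls, and without whole-cell sample 1 or 2 the proteasome list held 5. Leaving out 1 control sample ended the call of Cct4 in 4 of 6 cases (nuclear samples 1 and 2, whole-cell samples 1 and 3, limma, adjusted p = 0.0588 to 0.1263), of Psmb7 in 4 (nuclear samples 1 and 2, whole-cell samples 1 and 2, adjusted p = 0.0619 to 0.1451) and of Psmd11 in 3 (nuclear sample 3, whole-cell samples 2 and 3, adjusted p = 0.0849 to 0.139).

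Glycolytic enzymes held 10 lower calls and 1 higher call among 21 loci (median -0.91). Aldoa was at -2.18 ± 0.28 (limma, adjusted p = 1.22e-05) and Eno1 at -1.47. The exception was Pfkp, the platelet form of phosphofructokinase, with 9385.4, 10280 and 9533.6 in nuclear and 5354.1, 5512.3 and 5548.7 in whole-cell samples (0.83 ± 0.21, limma, adjusted p = 0.0109). Its groups were apart, and the call was lost without nuclear sample 2 (limma, adjusted p = 0.0515).

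Nuclear-encoded subunits of the respiratory chain and ATP synthase had 37 lower calls, none higher, among 79 loci, with a median of -1.62. Without nuclear sample 3 the lower calls numbered 24, without whole-cell sample 2 or 3 they numbered 22, and the median was -2.70 with the FPKM values. Atp5b, the catalytic beta subunit, had 1051.3, 945.2 and 1004.6 in nuclear and 5472.8, 5681.7 and 4496.3 in whole-cell samples (-2.38 ± 0.23, limma, adjusted p = 3.73e-07). Atp5a1, Atp5g2 and Sdhb were called at -2.28, -1.42 and -1.05. Mitochondrial ribosomal proteins, also made in the cytosol and imported, differed from this in count. Of 78 loci 3 were lower and 1 higher, with a median of -0.48. Mrpl14 had no read in any nuclear sample and 103.5, 55.3 and 73.3 in whole-cell samples, at least 17.7-fold lower against a floor of 3 reads per library, and its call was lost without whole-cell sample 1 (limma, adjusted p = 0.0522). Mrpl34 had 7.2, 0 and 0 against 56.4, 89.9 and 92. The 1 higher locus joins Mrps6 with Slc5a3, a myo-inositol transporter, so its reads cannot be given to either gene, and it was called only with all samples or without nuclear sample 2.

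Replication-dependent histone genes, whose messages normally end in a stem-loop and carry no poly(A) tail, had 17 lower calls and none higher among 55 loci, with a median of -1.55. Without nuclear sample 2 or whole-cell sample 2 the lower calls numbered 10, and 11 to 14 without another control sample. Hist2h4 had 196.4, 251.4 and 246.8 in nuclear and 617.4, 689.1 and 688.3 in whole-cell samples (-1.52 ± 0.38, limma, adjusted p = 0.0108), and Hist3h2ba was called at -1.56.

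Genes of the endoplasmic reticulum and secretory route were moderately lower. Of 40 chaperone and translocon loci 15 were lower and none higher, with a median of -0.75. Without nuclear sample 2 or whole-cell sample 1 or 2 the lower calls numbered 9, and 10 to 12 without another control sample. Canx, a membrane-bound chaperone of glycoproteins, had 934.3, 986.9 and 827.4 in nuclear and 4581.5, 4128.8 and 3670.8 in whole-cell samples (-2.17 ± 0.24, limma, adjusted p = 1.73e-06). P4hb, Hyou1 and the Calr locus were called at -1.65, -0.91 and -0.62, the last lost whichever control sample was left out (limma, adjusted p = 0.0613 to 0.1495). Of 21 cholesterol synthesis loci 7 were lower and none higher, with a median of -0.71. Srebf2, the transcription factor of the pathway, had 1032.6, 925.0 and 846.4 against 1973.2, 1927.4 and 1889.6 (-1.05 ± 0.19, limma, adjusted p = 0.00064), and Hmgcs1, Fdps and Sqle were called at -1.20, -1.13 and -0.71. With 1 control library left out, 2 to 5 loci of the cholesterol list were called. Srebf2 was always among them, while Hmgcs1, Fdps and Sqle were not called without nuclear sample 3 (limma, adjusted p = 0.0643, 0.1015 and 0.0771) and in 3 to 4 of the other 5 cases.

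Genes of neuronal vesicles, granules and growth cones had 11 lower calls and 1 higher call among 26 loci, with a median of -0.53. The lower calls numbered 5 without whole-cell sample 1, 6 without whole-cell sample 2 or 3, 7 without nuclear sample 1 or 2 and 8 without nuclear sample 3. Dpysl3, a regulator of growth cone microtubules, had 2348.2, 2488.8 and 2760.7 in nuclear and 7301.4, 7271.9 and 6070.2 in whole-cell samples (-1.44 ± 0.21, limma, adjusted p = 6.34e-05). Stmn1 and Stmn2, which destabilize microtubules, were called at -1.25 and -1.11, and Stmn2 kept its call only without nuclear sample 3 (limma, adjusted p = 0.0279, and 0.0819 to 0.1705 in the other cases). Snap25, a SNARE of synaptic vesicle fusion, had 3617.5, 3708.2 and 3034.4 against 2219.0, 2023.3 and 2259.8 and was higher (0.67 ± 0.19, limma, adjusted p = 0.0237). The groups were apart for Snap25, but leaving out any 1 control library other than nuclear sample 3 ended its call (limma, adjusted p = 0.0581 to 0.0996).

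Messages of proteins that themselves work in the nucleus leaned below 0 in the spliceosome and nucleolar lists and were even in the chromatin list. Log2 fold changes were below 0 at 31 of 42, 18 of 28 and 25 of 50 loci in this order, against 7375 of all 15579. Of 42 spliceosome core loci 1 was higher and 1 lower (median -0.31). Sf3b1, the branch-site factor, had 4033.4, 4037.7 and 4053.3 in nuclear and 2335.4, 2980.5 and 2220.9 in whole-cell samples (0.70 ± 0.16, limma, adjusted p = 0.00588), whereas Prpf8, Eftud2 and Sf3b3 lay between -0.43 and 0.30 and were not called. Of 28 snoRNP and nucleolar protein loci 3 were lower and none higher (median -0.35), with Npm1, the nucleolar shuttle protein, at -1.98 ± 0.29 (limma, adjusted p = 6.07e-05) and Ncl at -0.62, the latter called only with all samples or without whole-cell sample 2. Of 50 chromatin remodeler and histone methylation loci 1 was higher, Chd6 at 0.75, and 4 were lower, among them Ehmt2 at -0.91 and Kdm6b at -1.05. The median of this list was 0.00339, and it fell below 0 without nuclear or whole-cell sample 1 (-0.0572 and -0.050). Chd6 lost its call without nuclear sample 3 or whole-cell sample 1 or 2 (limma, adjusted p = 0.0763 to 0.1484). Kdm6b had its lowest value in nuclear sample 3 (1006.6, 613.1 and 302.2 against 1079.5, 1307.4 and 1186.4) and was at -0.60 without it (limma, adjusted p = 0.245), and only without nuclear sample 1 was it called again.

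Loci named for snoRNAs and scaRNAs need to be read with their host genes. Of 67 such loci 31 were lower and 4 higher, but 62 of them join the small RNA with another gene, and all 31 lower calls lay among these. The locus of Rack1, a ribosome-bound scaffold with 2 snoRNAs in its introns, had 1247.7, 1465.6 and 1382.7 in nuclear and 8476.2, 7093.7 and 10282 in whole-cell samples (-2.64 ± 0.32, limma, adjusted p = 5.47e-06). The 5 loci of this list without a host gene had log2 fold changes of 0.03 to 2.49, and of these Scarna2 was the only call. Chosen by annotated gene type instead, 40 tested snoRNA loci of 1 symbol had a median of 1.02. Of these 2 were higher (5.0%, against 2.94% of all tested loci) and none lower (against 6.91%). The oligo-dT selection does not aim at these RNAs, which have no poly(A) tail.

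The nuclear-encoded gene with the largest number of whole-cell reads among those called lower was Acaca, acetyl-CoA carboxylase 1, the first committed enzyme of fatty acid synthesis (chr11:84129672-84401652). It had 1445.6, 1387.6 and 1710.2 in nuclear and 51837, 83219 and 52152 in whole-cell samples. The groups lay far apart, with a log2 fold change of -5.33 ± 0.41 (limma, adjusted p = 4.9e-08), and -5.42 without nuclear sample 3. Acaca took 0.869%, 1.41% and 0.861% of reads in whole-cell samples and 0.0257%, 0.024% and 0.0288% in nuclear samples (exact permutation test, two-sided p = 0.1, the smallest possible). The enzyme carries covalently bound biotin, and 4 other mammalian carboxylases do so as well. Their genes were looked up after the value of Acaca was seen. The locus of Acacb, joined with Ung, had 98.2, 80.7 and 1.6 in nuclear and 595.0, 943.4 and 376.5 in whole-cell samples (-4.44 ± 0.83, limma, adjusted p = 0.000955, and -2.73 without nuclear sample 3, adjusted p = 0.000979). Pcx, Mccc1 and Pcca were at -0.65, -0.03 and 1.01 and were not called (limma, adjusted p = 0.31, 0.984 and 0.342). Acaca was at -5.00 in the Scr samples and at -4.91 in the miR-92b samples. The part of the streptavidin step in these values was not tested.

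Transcript features were set beside the calls for 10570 protein-coding loci of 1 symbol, as a description. Loci were split into 5 groups of like size by each feature. By spliced length, the shortest group (up to 2083 bases) had a median log2 fold change of -0.71 with 14.1% called lower and 1.14% higher, and the longest group (above 5446 bases) a median of 0.12 with 3.97% lower and 4.68% higher. The medians rose in order through the 5 groups. By the length of the gene the medians ran from -0.43 to 0.17, again in order. By GC content they ran from 0.16 in the group with the least GC to -0.37 in that with the most, where 0.284% of loci were called higher against 5.91% in the first. By number of exons the medians lay between -0.22 and 0.03. The features are related to each other and to the gene lists above, and their separate parts were not tested.

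**Figure D4:**
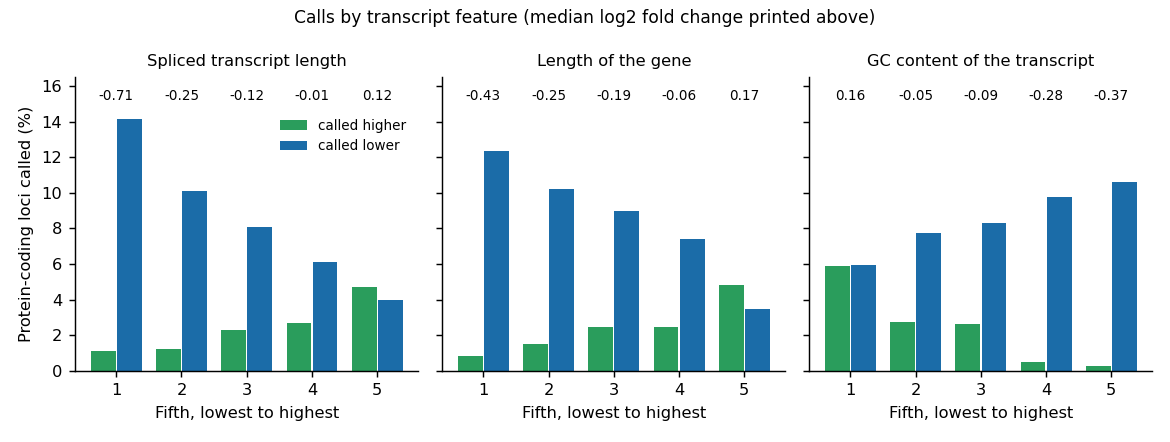
Share of protein-coding loci called higher (green) and lower (blue) in nuclear control samples, in 5 groups each by spliced length, gene length and GC content, with the median log2 fold change of each group printed above. Within each feature the shares called lower were largest in short transcripts (14.1%), short genes (12.3%) and GC-rich transcripts (10.6%).

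By annotated gene type, protein-coding loci had a median of -0.12 with 255 higher and 896 lower calls. Noncoding types lay above 0, with medians of 0.69 for 570 lincRNA loci, 0.73 for 880 antisense loci, 0.84 for 829 loci of type TEC (unconfirmed transcripts) and 0.69 for pseudogenes. Of lincRNA loci 22 were called higher (3.86%) and 4 lower (0.702%), and of antisense loci 19 (2.16%) and 1 (0.114%). Of TEC loci 3.50% were higher and 0.121% lower, and of pseudogenes 3.56% and 3.16%. Over all tested loci these shares were 2.94% and 6.91%. Whether strand was used in counting is not stated, so reads of antisense and intronic loci cannot be told apart from unspliced RNA of the genes they overlap. Of 38 snRNA loci 5 were higher and none lower.

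Nuclear and whole-cell RNA was also sequenced after each mimic, in samples that share none with the control comparison but enter the same model. The paper describes these samples, Scr and miR-92b alike, as streptavidin pulldowns. The labels do not say whether control RNA went through that step, so the RNA compared need not be of the same kind. Of the 458 loci higher in control nuclei, 448 were above 0 in Scr and 457 in miR-92b samples, against 50.2% and 59.7% of all tested loci. Of the 1077 lower loci, 1054 and 1074 were below 0, against 49.7% and 40.3%. Loci called in the same direction in Scr made up 18.6% of the higher and 38.5% of the lower control calls (37.3% and 71.9% of the Scr calls), and in miR-92b 73.6% and 72.0% (32.5% and 75.02% of the miR-92b calls). Over all tested loci, 1.46% were called higher and 3.70% lower in Scr, and 6.66% and 6.63% in miR-92b. No locus was called in opposite directions.

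The sizes differed more than the directions. The median of the loci called lower was -1.62 in control, -0.99 in Scr and -1.42 in miR-92b samples, values that favour control because it chose the loci. The ribosomal protein list, whose members were taken by name, had medians of -2.75, -1.83 and -2.44 in the same order, and mitochondrially encoded loci -5.75, -3.58 and -5.14. Nuclear-retained long noncoding RNAs were at 0.79, 0.79 and 0.90. In the test of the difference between compartment effects no locus passed, neither for control against Scr nor for control against miR-92b (limma, 0 of 15579, with 823 and 290 loci at an unadjusted p under 0.05). edgeR also called 0, and DESeq2 called 8 and 3. Mitochondrial reads took 0.0514%, 0.237% and 0.485% in the Scr nuclear samples, above the matching range of control nuclei of 0.0268% to 0.106% in 2 of 3 samples.

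**Figure D5:**
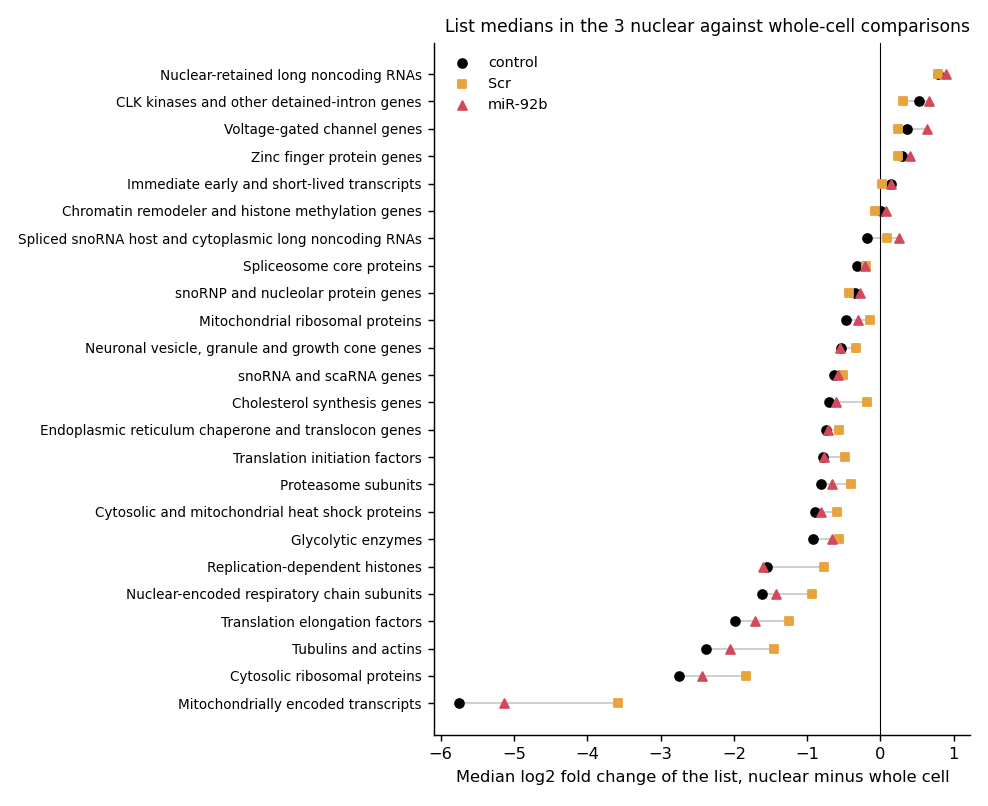
Median log2 fold change of nuclear over whole cell for 24 gene lists in control (black circles), Scr (orange squares) and miR-92b samples (red triangles). The paper describes the Scr and miR-92b samples as streptavidin pulldowns. The order of the lists is alike in the 3 comparisons, and the Scr medians of lists far below 0 lie nearer to 0, as for mitochondrially encoded loci (-3.58 against -5.75 in control).

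The loci with the most normalized counts were not all called. Noct, a circadian deadenylase-like phosphatase, had 53703, 65616 and 80064 in nuclear and 51388, 48549 and 55146 in whole-cell samples (0.35 ± 0.26, limma, adjusted p = 0.47). Gm42860 and Slc38a6 were at 0.20 and 0.24. These 3 loci overlapped between the groups and, with Malat1, were among the 8 loci with most counts in both. The Lncpint locus, which also holds Mir29a and Mir29b-1, had 26670, 31789 and 33159 against 18605, 16832 and 18710 (0.75 ± 0.25) and just missed the threshold (limma, adjusted p = 0.0542), as did the Gm8802 locus at 0.81 (limma, adjusted p = 0.0805).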

How the data were processed

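Per the labels and the methods of the study, the authors trimmed reads with Trimmomatic 0.30 after bcl2fastq 2.17, used TopHat2 for alignment to the GRCm38 (mm10) build, and ran Cufflinks for loci and Cuffdiff for values per sample. For these 3 tools no version, and for the annotation no release, is given in the sources used here. The deposited normalized counts are a signal, reads per locus divided by a size factor for each sample. The deposited FPKM values are per length and library. Deposited comparison tables of other groups hold fold changes and p-values and were not used. All 623334 values of up to 2000 reads came out as whole reads within 0.02 (100%), so reads were recovered for depth and for edgeR and DESeq2.

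Of 168136 loci, 52179 have a symbol and 1548 of these join several. Those averaging 10 or more normalized counts across all 18 samples were tested (15579, of which 1197 join several symbols and 10909 share a listed region with another locus). The main test was limma 3.58.1 (R 4.3.3) (trend of variance with level) on log2(normalized count + 1), so that folds of low loci are understated, in 1 model of 6 groups of 3, two-sided, adjusted after Benjamini-Hochberg and called below 0.05. The supplement gives 3 experiments for the checks of fractionation and pulldown. It does not say that the 3 sequenced samples of a group came from separate experiments, so p-values measure the spread between these samples. Exact permutation tests with 3 against 3 cannot go below 0.1. Alternatives were other pseudocounts, filters, scalings and models, the FPKM table, edgeR 4.0.16, DESeq2 1.42.0 and leaving out each control sample. On simulated counts with 200 changed loci of 15579 for this comparison, limma and edgeR each recovered 101 (50.5%), with 5 and 3 false calls. Each changed locus was given a log2 change of 2, and loci with few reads were not changed. The median of the loci called higher was 0.94, and recovery of changes of that size was not tested.

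Between nuclear and whole-cell samples of the same number, the correlations of deviations from the group means were -0.030, 0.0018 and -0.044. They cannot tell whether such samples came from the same culture, and the main model did not pair them. Lengths, exons, GC content and gene types came from GENCODE M21 (GRCm38), matched by symbol, and start-site windows from RefSeq (GRCm38.p6). The gene lists and members were chosen with earlier results of these data known, and the carboxylases and RNA polymerase III transcripts after these values were seen. Loci were named by rule: the fraction markers of the study, up to 12 loci per direction with the largest change among called loci with groups apart and a mean of at least 50, the 4 members of each list with most counts among those called (or tested, where fewer than 4 were called), and the 8 loci with most counts in each group. A few symbols of the lists are not analysed here. Some results are not reported here.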

Additional observations from a re-analysis of the deposited data

How the results depend on the processing

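The main model pools the spread of 6 groups. With only the groups compared it called 1299 higher and 1809 lower (3108 in all), with limma's sample weights (arrayWeights) 2049 and 2266 (4315), and with the third whole-cell miR-92b sample out of the model 1021 and 1414 (2435), so the number of calls depends on which samples set the spread. The main call of 1535 loci fell to between 850 and 1287 when 1 control sample was left out (144 to 357 higher, 674 to 930 lower). Higher calls alone moved to 305 with no filter, 113 with the FPKM values, 773 with samples scaled to the same median, 701 with quantile normalization, 785 with DESeq2 (no adjusted p for 4233 loci) and 183 with an absolute log2 fold change above 1. edgeR called 448 and 974. Differences between compartment effects gave 8 calls against Scr with DESeq2, and against miR-92b 1 with arrayWeights, 1 without the third whole-cell miR-92b sample and 3 with DESeq2. With the sample number as a replicate block 1570 loci were called (484 higher and 1086 lower), and 1 named locus lost its call. Added after seeing the data, the replicate block with only the groups compared gave 3254 (1343 and 1911) and with edgeR 1452. Of 126 named loci, 104 were called, 20 to 32 of which lost the call when 1 control sample was left out and 29 with the FPKM values, and none of the 126 changed direction with a call. Between 18 and 19 of the 24 list medians lay below 0 under every alternative. With the FPKM values the medians of 7 further lists moved down by over 1.5 times, to -1.19 (endoplasmic reticulum), -0.81 (neuronal vesicles), -0.59 (spliceosome), -0.64 (snoRNP), -1.03 (mitochondrial ribosomal proteins), -1.33 (proteasome) and -1.21 (snoRNAs). The read shares by gene class kept their direction with all loci as the denominator and with 1 sample left out. Depth is limited to at most 7772587 reads on loci with a symbol per control sample, and the filter on low values removed loci from the test.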

Other observations

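Some of the loci furthest below 0 were not messages at all. RNAs made by RNA polymerase III, short, structured and without a poly(A) tail, were looked up after the value of Rpph1 was seen. All 5 tested loci were lower in nuclear samples, with a median log2 fold change of -4.00, and several of these RNAs are known to act in the nucleus. Rpph1, the RNA of RNase P that trims tRNA precursors (chr14:50807449-50807767), had normalized counts of 33.2, 47.1 and 93.3 in nuclear and 1315.9, 1707.7 and 2340.1 in whole-cell samples (-5.02 ± 0.67, limma, adjusted p = 1.79e-05). Rmrp, its relative that acts on ribosomal RNA precursors, had 82.3, 79.3 and 226.2 against 2342.5, 2742.7 and 3511.8 (-4.62 ± 0.73, limma, adjusted p = 0.000136). Rn7sk, which holds the elongation factor P-TEFb inactive in the nucleus, had 2095.4, 1629.6 and 3077.1 against 8744.3, 9292.6 and 16147 (-2.32 ± 0.48, limma, adjusted p = 0.00223). The Rn7s2 and Rn7s1 loci of the signal recognition particle, a cytoplasmic complex, were at -3.74 and -4.00. Rn7s2 was not called without whole-cell sample 3 (limma, adjusted p = 0.0574), and Rn7s1 lost its call whichever control sample was left out (limma, adjusted p = 0.0819 to 0.131). None of the 5 overlapped between the groups. With 1 control library left out 3 or 4 of them were called. Scarna2 and 5 of 38 loci annotated as snRNA, types that also lack a tail, were called higher. Whether reads of these loci came from the small RNA or from a gene they overlap was not tested. The part of the oligo-dT selection in these values was not tested.

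The size of several of the lowest fold changes rested on nuclear sample 3, in which the locus had no read. Rabac1, a vesicle trafficking protein, had 28.9, 29.6 and 0 in nuclear and 337.5, 269.8 and 345.3 in whole-cell samples and moved from -5.03 to -3.39 without that sample (limma, adjusted p = 0.0111). Ndufb11 moved from -5.19 to -3.86, Cox6a1 from -5.50 to -4.33, Rpl39l from -5.27 to -4.25 and Atox1 from -5.82 to -5.21, and all 5 were called without it (limma, adjusted p = 0.0111 or less for the first 4 and 0.0261 for Atox1). Rps21, with 3.2 in that sample, moved from -5.16 to -4.48 and was called too (limma, adjusted p = 0.00719).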
